A study of Mus musculus with 5 samples.

Results

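Copying the genome needs proteins that mark and open origins, enzymes that make deoxynucleotides, and a fork machinery of polymerases, clamp, clamp loaders and ligase. The expression of 42 mouse genes with these roles was described in GL261 glioma cells treated with sodium propionate or with sodium chloride. The genes were picked by name among the gene names of the deposited transcript files, with the MCM, GINS and histone genes left out, and all 42 were found among the 55387 annotated genes. GL261 is an established mouse glioma line, and propionate belongs to the short-chain fatty acids that bacteria of the gut release. RNA was collected 24 h after addition of either salt, each labelled as given at 1 uM, a unit that could not be checked. The sodium propionate group held 2 libraries (replicates 2 and 3) and the sodium chloride group held 3 libraries (replicates 1, 2 and 3). Sodium chloride served as the control salt, so both groups received sodium, and no genotype, transgene or other agent is labelled for either. Propionate replicate 1 was not analysed here. Nothing in the labels ties each library to a culture of its own, so p-values here reflect the spread from library to library, which may be technical.

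As background, the origin recognition complex with CDC6 and CDT1 loads the replicative helicase in G1, geminin blocks CDT1 afterwards, and cyclin E with its kinase starts S phase. Ribonucleotide reductase, thymidylate synthase and thymidine kinase then supply deoxynucleotides, and many of these genes are transcribed late in G1 under the control of E2F factors. PCNA, the ring that clamps polymerases to DNA, also recruits the enzymes that join Okazaki fragments and the factors that rebuild chromatin behind the fork.

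Aligned sequence, taken as coverage times length summed over all transcripts, came to 6.59 and 6.75 Gb in the propionate libraries and to 7.03, 6.75 and 6.53 Gb in the chloride libraries. Of 8 markers looked up for a glioma line, Nes lay between 44.2 and 51.5 TPM (a length-corrected share of the transcripts of a library) over the 5 libraries. Sox2 lay between 61.4 and 85.8 TPM, Cd44 between 48.0 and 61.7 TPM and S100b between 147.0 and 207.5 TPM. Vim had 5472 to 7073 TPM and Pdgfra 11.1 to 22.6 TPM. Gfap was low, between 3.22 and 6.59 TPM, and Olig2 was below 1 TPM in all 5 libraries. None of the 6 immune, 3 neuronal and 3 endothelial markers reached 1 TPM in any library, and Itgam, Rbfox3, Snap25 and Cdh5 were listed at 0 in all 5. The share of TPM in protein-coding genes was 45.2% and 50.3% in the propionate libraries and 49.1%, 47.7% and 46.7% in the chloride libraries, so it was lowest and highest in the 2 propionate libraries.

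All 42 genes passed the minimum of 1 TPM on average, 40 of them had lower levels in propionate by the fitted change, and no single gene passed the test across all genes. The log2 change (log2(TPM + 1) of propionate minus that of chloride) was below 0 in 40 of the 42 genes, as it was in 55.8% of the 14360 genes tested. Its median was -0.24 over the 42 genes (quartiles -0.34 and -0.11), which is a fold of 0.845, beside -0.03 over all tested genes (quartiles -0.16 and 0.11). In 29 of the 42 genes both propionate libraries lay below all 3 chloride libraries, beside 19.6% of tested genes, and in none did both lie above all 3, beside 14.6% of tested genes. Among these 29 genes the propionate mean was lower by 9.31% to 29.6% than the chloride mean, with a median of 21.0%. A lower mean is fixed by the way these 29 were picked, and the fold of 0.845 above covers all 42 genes. With limma and a Benjamini-Hochberg adjusted p under 0.05, 0 of the 42 genes were lower and 0 were higher, beside 0.279% and 0.877% of all tested genes. At an unadjusted p under 0.05, 18 of the 42 genes were lower and 0 were higher, beside 8.61% and 7.52% of all tested genes. Without propionate replicate 2 the count of 18 was 7, and with reference transcripts only it was 11. In RNA from whole cultures, fewer cells in S phase and less of these RNAs per cell cannot be told apart.

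**Figure D1:**
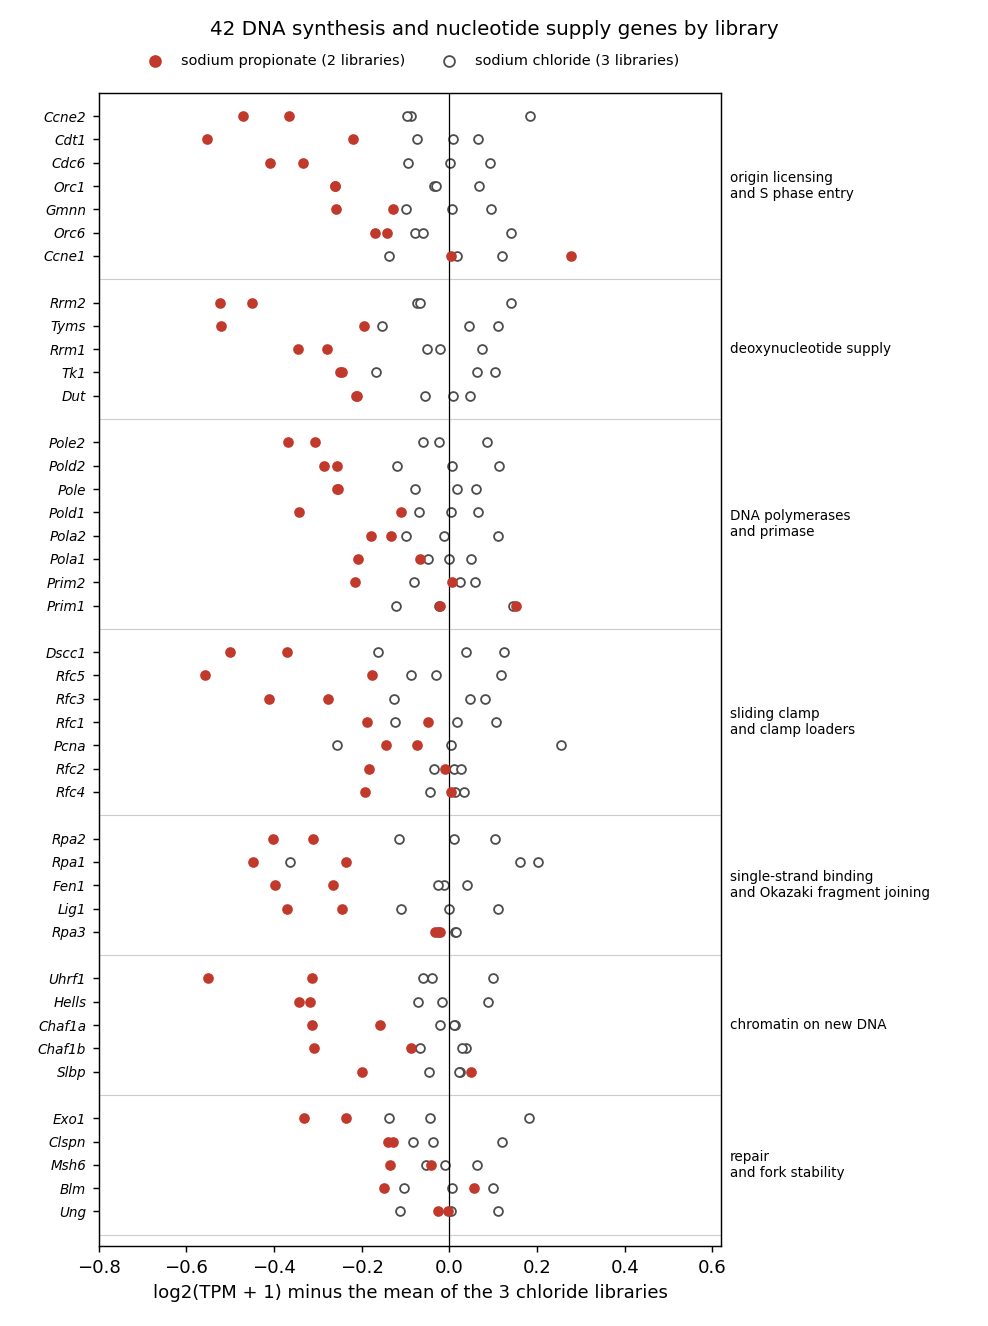
Each row is 1 of the 42 genes, ordered by role; the horizontal axis gives log2(TPM + 1) in each library minus the mean of the 3 chloride libraries, with filled points for the 2 propionate libraries and open points for the 3 chloride libraries. In 29 rows both filled points lie left of all open points, and Ccne1 and Prim1 are the rows whose filled points average above 0.

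Both propionate libraries shared the lower position, but not to the same degree. Relative to the chloride mean of each gene, the 42 genes had a median of -0.26 in propionate replicate 2 and of -0.20 in replicate 3, against 0.01, -0.05 and 0.01 in chloride replicates 1, 2 and 3. The same medians over all tested genes were -0.08 and 0.03 in the propionate libraries, against 0.04, 0.00 and -0.04 in the chloride libraries. With the median of all genes subtracted, the 42 genes stood at -0.17 and -0.23 in the propionate libraries, against -0.02, -0.05 and 0.05 in the chloride libraries. Propionate replicate 2 had the lower TPM of the pair in 35 of the 42 genes, and the share over all tested genes was not counted. With the median of all genes subtracted, the order was the other way, with -0.17 in replicate 2 and -0.23 in replicate 3. Propionate replicate 2 was also the library with the smallest protein-coding share. The part of that share in the difference was not tested. With each library rescaled to 1000000 TPM over protein-coding genes, the 42 genes summed to 2219 and 2177 TPM in the propionate libraries, against 2456, 2468 and 2696 TPM in the chloride libraries. On that scale too, both propionate sums were below all 3 chloride sums.

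Short sequence words were read from RefSeq promoter windows (assembly GRCm38.p6, 250 bases before to 50 bases after a start site). Such windows were at hand for 35 of the 42 genes. An E2F word (TTTCCCGC, TTTCGCGC, TTTGCCGC or TTTGGCGC on either strand) occurred in 12 of these 35 genes (34.3%), beside 2.60% of the 27025 genes with a window. Many of the 42 genes are textbook E2F targets, and the words were chosen with earlier results known. The share of 34.3% is thus not independent of how the genes were chosen. The sites are shown with up to 10 bases on each side, on the strand of the gene, with the E2F words in capitals, because E2F factors are the textbook regulators of many of these genes. The words begin between position -185 and position 39 relative to the start site.
Cdc6, chr11:98908003-98908030, plus strand: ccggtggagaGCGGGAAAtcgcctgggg
Cdt1, chr8:122568037-122568064, plus strand: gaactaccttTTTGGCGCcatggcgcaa
Orc1, chr4:108579417-108579444, plus strand: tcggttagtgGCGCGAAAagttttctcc
Pole2, chr12:69228163-69228190, minus strand: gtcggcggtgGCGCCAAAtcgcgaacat
Pold1, chr7:44548766-44548786, minus strand: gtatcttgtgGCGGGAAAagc
Pola1, chrX:93632276-93632303, minus strand: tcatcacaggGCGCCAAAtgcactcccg
Rfc3, chr5:151651201-151651228, minus strand: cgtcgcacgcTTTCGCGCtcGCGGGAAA
Lig1, chr7:13278842-13278869, plus strand: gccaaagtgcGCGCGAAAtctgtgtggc
Uhrf1, chr17:56304118-56304145, plus strand: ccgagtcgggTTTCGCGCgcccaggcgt
Hells, chr19:38930918-38930945, plus strand: accaccgggtTTTCCCGCgaaagagaag
Msh6, chr17:87975055-87975082, plus strand: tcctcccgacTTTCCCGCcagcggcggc
Clspn, chr4:126556991-126557018, plus strand: ccgcgtctggGCGCGAAAgctcgaactt
The Rfc3 promoter holds 2 such words side by side, on opposite strands. The Lig1 and Uhrf1 sites lie in the second RefSeq window of the gene, counted in the direction of transcription. Of the 12 genes, 11 had both propionate libraries below all 3 chloride libraries, with Msh6 as the exception, and their median log2 change was -0.32. The 23 genes with a window and no E2F word counted 13 such genes and had a median log2 change of -0.20, and over all tested genes the share without overlap was 19.6%. This split was not tested, and other spellings of an E2F site were not searched, so the 23 genes are not shown to lack one. Other words were looked up on both strands in the same windows. The CCAAT box (CCAAT) was in 54.3% of the 35 genes and in 41.1% of all genes, the GC box (GGGCGG) in 77.1% and 38.2%, and the CHR element (TTTGAA), which is typical of mitotic genes, in 5.71% and 20.2%. A word is a match of letters and does not show that a factor binds there.

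Origin licensing and S phase entry held 7 of the 42 genes, with a median log2 change of -0.26. In 6 of the 7, both propionate libraries lay below all chloride libraries, beside 19.6% of all tested genes. Ccne2, which encodes cyclin E2 (ENSMUSG00000028212, chr4:11191351-11204779, plus strand, mm10), had 9.53 and 8.79 TPM in the propionate libraries, against 11.8, 14.4 and 11.7 TPM in the chloride libraries. Cdc6, the ATPase that helps the origin recognition complex load the helicase (ENSMUSG00000017499, chr11:98907801-98923940, plus strand), had 5.96 and 6.34 TPM after propionate, against 8.85, 8.26 and 7.66 TPM after chloride. Cdt1, its partner in helicase loading, had 12.1 and 15.5 TPM in the propionate libraries, against 17.3, 19.1 and 18.3 TPM in the chloride libraries. In all of these the groups did not overlap, and their log2 changes were -0.42 ± 0.12, -0.37 ± 0.11 and -0.39 ± 0.13 (± SE) for Ccne2, Cdc6 and Cdt1, with adjusted p = 0.168, 0.177 and 0.199 (limma). Orc1, the ATPase subunit of the origin recognition complex, averaged 4.16 ± 0.00204 TPM in the propionate libraries and 5.19 ± 0.25 TPM in the chloride libraries (SD, n = 2 and n = 3). Orc6, the smallest origin recognition subunit, averaged 52.1 ± 0.725 TPM in the propionate libraries and 58.3 ± 5.10 TPM in the chloride libraries, and Gmnn, which encodes the CDT1 inhibitor geminin, averaged 37.3 ± 2.42 TPM after propionate and 42.8 ± 2.94 TPM after chloride. Their log2 changes were -0.26 (Orc1), -0.16 (Orc6) and -0.19 (Gmnn), and all lay below the chloride range in both propionate libraries.

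The exception in this role was Ccne1, which encodes cyclin E1 and is singled out after its values were seen. Ccne1 had 17.2 and 21.0 TPM in the propionate libraries, against 18.7, 17.4 and 15.5 TPM in the chloride libraries, so the groups overlapped (log2 change 0.14 ± 0.13 SE, adjusted p = 0.636, limma). The ratio of Ccne2 to Ccne1 TPM was 0.553 and 0.418 in the propionate libraries, against 0.629, 0.828 and 0.754 in the chloride libraries. It was lower in both propionate libraries than in all chloride libraries, and it was not tested, since the pair was chosen with the values known. Cdt1 to Gmnn, the helicase loader to its inhibitor, had ratios of 0.340 and 0.398 in the propionate libraries, against 0.403, 0.480 and 0.402 in the chloride libraries, which is a narrow gap.

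In gene TPM, deoxynucleotide supply was the role without an exception, with a median log2 change of -0.31. All 5 genes had both propionate libraries below all 3 chloride libraries, beside 19.6% of all tested genes. Rrm2, the regulated small subunit of ribonucleotide reductase, the enzyme that turns ribonucleotides into deoxynucleotides (ENSMUSG00000020649, chr12:24708241-24714146, plus strand), had the smallest p of the 42 genes. It had 23.8 and 25.1 TPM in the propionate libraries, against 38.3, 32.9 and 33.0 TPM in the chloride libraries, and the propionate mean was 29.6% lower. Its log2 change was -0.49 ± 0.10 (SE), with adjusted p = 0.0807 (limma), so it did not pass, and over the 17 alternatives its adjusted p lay between 0.0163 and 0.276. It ranked 352 among the 14360 tested genes by p. Rrm1, the large subunit of the same enzyme (chr7:102441695-102469771, plus strand), had 43.9 and 45.9 TPM in the propionate libraries, against 59.0, 54.0 and 55.2 TPM in the chloride libraries (log2 change -0.31 ± 0.09 SE, adjusted p = 0.148, limma). Both subunits were lower, and the ratio of Rrm2 to Rrm1 TPM was 0.542 and 0.546 in the propionate libraries, against 0.649, 0.609 and 0.599 in the chloride libraries. Their promoter windows are shown because these 2 genes, with Fen1 and Uhrf1 below, are the 4 with the smallest p. The Rrm2 window is chr12:24708004-24708303, plus strand, the Rrm1 window chr7:102441445-102441744, plus strand (RefSeq, GRCm38.p6), and CCAAT words on either strand are in capitals.
Rrm2: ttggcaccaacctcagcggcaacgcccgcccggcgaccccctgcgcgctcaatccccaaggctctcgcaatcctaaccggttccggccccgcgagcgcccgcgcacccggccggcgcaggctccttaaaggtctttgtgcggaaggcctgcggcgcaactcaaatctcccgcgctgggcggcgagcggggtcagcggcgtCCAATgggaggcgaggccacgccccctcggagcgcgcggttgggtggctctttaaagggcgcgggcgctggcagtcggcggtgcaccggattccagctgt
Rrm1: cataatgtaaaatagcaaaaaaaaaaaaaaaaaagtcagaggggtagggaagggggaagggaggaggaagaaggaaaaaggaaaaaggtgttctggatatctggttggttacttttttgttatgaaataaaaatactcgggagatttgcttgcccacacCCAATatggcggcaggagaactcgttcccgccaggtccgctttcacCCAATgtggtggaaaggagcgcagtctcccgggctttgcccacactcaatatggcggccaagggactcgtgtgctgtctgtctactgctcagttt
Neither window holds an E2F word as spelled above, and they hold 1 (Rrm2) and 2 (Rrm1) CCAAT words.

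The other 3 supply genes also lay below the chloride range in both propionate libraries. Tyms, thymidylate synthase, had 10.6 and 13.5 TPM in the propionate libraries, against 16.1, 13.9 and 16.9 TPM in the chloride libraries (log2 change -0.36 ± 0.14 SE, adjusted p = 0.265, limma). The higher propionate library of Tyms came close to the lowest chloride library. Tk1, the salvage thymidine kinase of S phase, averaged 31.4 ± 0.0755 TPM in the propionate libraries and 37.7 ± 3.83 TPM in the chloride libraries, and Dut, the phosphatase that keeps dUTP low, averaged 28.7 ± 0.0299 TPM after propionate and 33.4 ± 1.22 TPM after chloride. Their log2 changes were -0.25 (Tk1) and -0.21 (Dut). The 5 supply genes summed to 138.2 and 144.7 TPM in the propionate libraries, against 187.2, 166.1 and 179.1 TPM in the chloride libraries.

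**Figure D2:**
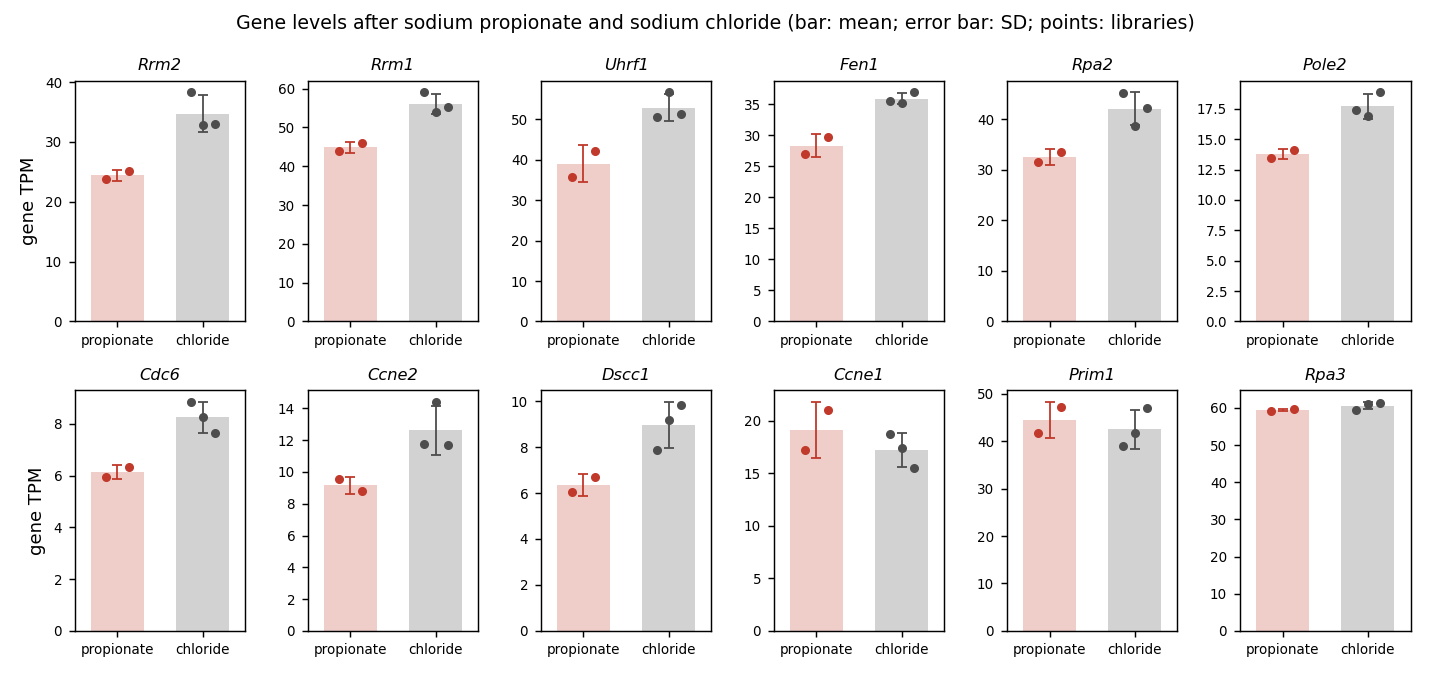
Bars give mean gene TPM with the SD as error bar and the points give the libraries, for propionate (2 libraries, left) and chloride (3 libraries, right), in 12 of the 42 genes. In Rrm2, Rrm1, Uhrf1, Fen1, Rpa2, Pole2, Cdc6, Ccne2 and Dscc1 both propionate points lie below all chloride points, while in Ccne1, Prim1 and Rpa3 the points overlap.

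The DNA polymerases and primase gave 8 genes, with a median log2 change of -0.19. Of these, 6 had both propionate libraries below all chloride libraries, beside 19.6% of all tested genes. Pole2, a noncatalytic subunit of the leading-strand polymerase epsilon (chr12:69201773-69228195, minus strand), had 13.5 and 14.1 TPM in the propionate libraries, against 17.4, 16.9 and 18.9 TPM in the chloride libraries (log2 change -0.34 ± 0.10 SE, adjusted p = 0.163, limma). Pole, its catalytic subunit, had 6.56 and 6.55 TPM after propionate, against 8.11, 7.54 and 8.40 TPM after chloride, with a log2 change of -0.25. Pold2, an accessory subunit of the lagging-strand polymerase delta, had 21.1 and 21.5 TPM in the propionate libraries, against 28.1, 26.1 and 23.8 TPM in the chloride libraries, with a log2 change of -0.27. Among the rest, Pold1, the catalytic subunit of polymerase delta, averaged 15.5 ± 1.88 TPM in the propionate libraries and 18.3 ± 0.902 TPM in the chloride libraries. The subunits of polymerase alpha, Pola1 and Pola2, had log2 changes of -0.14 and -0.16. The primase genes lay closest to the control, with log2 changes of -0.10 for Prim2 and 0.07 for Prim1. Prim1, the catalytic primase subunit, had 41.8 and 47.2 TPM in the propionate libraries, against 38.9, 41.7 and 47.0 TPM in the chloride libraries, so its libraries overlapped (adjusted p = 0.828, limma).

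Sliding clamp and clamp loader genes were split in TPM. All 7 had a log2 change below 0, beside 55.8% of all tested genes, and the median was -0.12. In TPM only 3 of the 7 had both propionate libraries below all chloride libraries, beside 19.6% of all tested genes. Dscc1, a subunit of the alternative clamp loader that acts in sister chromatid cohesion, had 6.02 and 6.69 TPM in the propionate libraries, against 7.87, 9.20 and 9.83 TPM in the chloride libraries (log2 change -0.43 ± 0.13 SE, adjusted p = 0.164, limma). Rfc3, a small subunit of replication factor C, which opens the clamp and loads it on DNA, had 16.1 and 17.8 TPM in the propionate libraries, against 19.9, 22.5 and 23.1 TPM in the chloride libraries. Rfc5, another small subunit, had 15.4 and 20.3 TPM in the propionate libraries, against 22.6, 21.7 and 25.1 TPM in the chloride libraries. The log2 changes of Rfc3 and Rfc5 were -0.35 and -0.37, with adjusted p = 0.187 and 0.253 (limma). The large subunit Rfc1 and the small subunits Rfc2 and Rfc4 overlapped between the groups, with log2 changes of -0.12, -0.10 and -0.09.

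Pcna, the clamp itself, had the highest TPM of the 42 genes and also a wide spread among the chloride libraries. It had 114.3 and 120.1 TPM in the propionate libraries, against 126.7, 105.6 and 151.0 TPM in the chloride libraries, so the groups overlapped (log2 change -0.11 ± 0.14 SE, adjusted p = 0.769, limma). A part of these values came from an assembled transcript that runs through both Tmem230 and Pcna (chr2:132239492-132253408, minus strand, 9 exons, 4578 bases, of which 1612 overlap Pcna exons and 2966 Tmem230 exons). That transcript had 17.2 and 21.5 TPM in the propionate libraries, against 26.8, 34.4 and 17.2 TPM in the chloride libraries. The reference transcripts of Pcna alone had 97.1 and 98.7 TPM in the propionate libraries, against 99.96, 71.2 and 133.8 TPM in the chloride libraries. Chloride replicate 2 was thus lowest in the reference transcripts and highest in the read-through transcript. In bases aligned to all these transcripts, the bases over Tmem230 included, Pcna had 177 and 179 kb per Gb in the propionate libraries, against 197, 195 and 217 kb per Gb in the chloride libraries, with no overlap.

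The single-strand binding and Okazaki fragment genes numbered 5, with a median log2 change of -0.33. Of these, 3 had both propionate libraries below all chloride libraries, beside 19.6% of all tested genes. Fen1, the nuclease that trims the flap of an Okazaki fragment (ENSMUSG00000024742, chr19:10199132-10204169, minus strand), had 27.0 and 29.7 TPM in the propionate libraries, against 35.6, 35.2 and 36.9 TPM in the chloride libraries (log2 change -0.33 ± 0.09 SE, adjusted p = 0.143, limma). Lig1, the ligase that seals the trimmed fragment, had 8.49 and 9.35 TPM in the propionate libraries, against 12.2, 11.2 and 10.4 TPM in the chloride libraries, with a log2 change of -0.31. The Fen1 promoter window (chr19:10203872-10204171, minus strand, RefSeq, GRCm38.p6) is the third of the 4 shown, and it holds neither an E2F word nor a CCAAT word. Its start site lies 147 bases from the start of the main Fen1 transcript in the deposited files.
Fen1: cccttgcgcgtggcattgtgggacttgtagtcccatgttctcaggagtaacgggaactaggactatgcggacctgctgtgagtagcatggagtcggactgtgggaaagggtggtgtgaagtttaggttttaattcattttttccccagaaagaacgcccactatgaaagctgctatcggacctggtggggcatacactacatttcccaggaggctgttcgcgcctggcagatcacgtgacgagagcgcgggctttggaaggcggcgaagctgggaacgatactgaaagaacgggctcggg
Replication protein A, which coats single-stranded DNA, has 3 subunits. Rpa2, the middle subunit (chr4:132768332-132778752, plus strand), had 31.5 and 33.6 TPM in the propionate libraries, against 45.2, 38.7 and 42.3 TPM in the chloride libraries (log2 change -0.36 ± 0.10 SE, adjusted p = 0.148, limma). Rpa3, the small subunit, had 59.2 and 59.7 TPM in the propionate libraries, against 59.5, 61.1 and 61.3 TPM in the chloride libraries, so it overlapped (log2 change -0.03 ± 0.08 SE). The ratio of Rpa2 to Rpa3 TPM was 0.533 and 0.564 in the propionate libraries, against 0.761, 0.634 and 0.691 in the chloride libraries, a pair that was chosen with the values known and not tested. The other ratios computed in the same way did not all go in this direction. Rpa1 to Rpa3 was 0.838 and 0.966 in the propionate libraries, against 0.885, 1.28 and 1.24 in the chloride libraries, and Pole2 to Pole was 2.05 and 2.15 in the propionate libraries, against 2.14, 2.24 and 2.24 in the chloride libraries, so both overlapped. Prim1 to Prim2 was higher in both propionate libraries, at 2.83 and 2.71, against 2.21, 2.56 and 2.60 in the chloride libraries. Rfc3 to Rfc4 was lower in both propionate libraries, at 0.651 and 0.625, against 0.693, 0.819 and 0.794 in the chloride libraries. None of the 8 ratios was tested.

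Rpa1, the large subunit, was counted on different transcripts in different libraries. It had 49.6 and 57.6 TPM in the propionate libraries, against 52.7, 78.5 and 76.2 TPM in the chloride libraries (log2 change -0.34 ± 0.18 SE, adjusted p = 0.398, limma). The shorter reference transcript ENSMUST00000000767 (2956 bases) had 0.167 and 0.0432 TPM in the propionate libraries, against 0.0241, 69.0 and 55.9 TPM in the chloride libraries. The longer one, ENSMUST00000092907 (5077 bases), had 48.7 and 57.4 TPM in the propionate libraries, against 52.6, 7.97 and 19.8 TPM in the chloride libraries. Chloride replicates 2 and 3 were thus counted mainly on the shorter transcript, where the same number of bases gives a higher TPM, and the other 3 libraries on the longer one. In aligned bases Rpa1 had 188 and 204.7 kb per Gb in the propionate libraries, against 186.7, 177.6 and 199.5 kb per Gb in the chloride libraries, and its log2 change with voom on aligned bases was 0.08.

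Genes that rebuild chromatin on new DNA had a median log2 change of -0.24. Of the 5, 4 had both propionate libraries below all chloride libraries, beside 19.6% of all tested genes. Uhrf1, which reads hemimethylated DNA and brings the maintenance methyltransferase to it (ENSMUSG00000001228, chr17:56303321-56323486, plus strand), had 35.8 and 42.3 TPM in the propionate libraries, against 50.6, 56.7 and 51.4 TPM in the chloride libraries (log2 change -0.43 ± 0.11 SE, adjusted p = 0.117, limma). Hells, a chromatin remodeller needed for DNA methylation, had 7.87 and 8.02 TPM in the propionate libraries, against 10.96, 9.71 and 10.1 TPM in the chloride libraries, with a log2 change of -0.33. Chaf1a, the large subunit of the histone chaperone CAF-1, had 7.70 and 8.70 TPM in the propionate libraries, against 9.91, 9.66 and 9.89 TPM in the chloride libraries. Its partner Chaf1b had a log2 change of -0.20, beside -0.24 for Chaf1a. In aligned bases Chaf1b overlapped, with 10.04 and 7.67 kb per Gb in the propionate libraries, against 10.37, 9.76 and 11.20 kb per Gb in the chloride libraries. Slbp, which binds the stem-loop of replication-dependent histone mRNAs, overlapped, with 71.2 and 84.8 TPM in the propionate libraries, against 83.3, 79.3 and 83.3 TPM in the chloride libraries. The first Uhrf1 promoter window (chr17:56303087-56303386, plus strand, RefSeq, GRCm38.p6) is shown beside its E2F site above, which belongs to the second window, and its CCAAT words, of which 1 is read on the opposite strand and overlaps another, are in capitals.
Uhrf1: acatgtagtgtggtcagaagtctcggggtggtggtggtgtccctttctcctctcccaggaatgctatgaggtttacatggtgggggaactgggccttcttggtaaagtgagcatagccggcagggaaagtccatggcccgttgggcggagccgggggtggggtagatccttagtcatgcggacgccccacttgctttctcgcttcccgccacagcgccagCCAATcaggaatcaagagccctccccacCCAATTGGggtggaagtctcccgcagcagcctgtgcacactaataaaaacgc

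Repair and fork stability genes were the role nearest to the control, with a median log2 change of -0.09. At an unadjusted p under 0.05 there were 0 of 5 genes, beside 8.61% lower and 7.52% higher of all tested genes. Both propionate libraries lay below all chloride libraries in 2 of 5, beside 19.6% of all tested genes. Exo1, an exonuclease of mismatch repair and end resection, had 5.22 and 4.82 TPM in the propionate libraries, against 6.11, 5.66 and 7.31 TPM in the chloride libraries (log2 change -0.28 ± 0.14 SE, adjusted p = 0.366, limma). Clspn, which encodes the checkpoint mediator claspin, had 7.03 and 6.96 TPM in the propionate libraries, against 8.54, 7.56 and 7.29 TPM in the chloride libraries. In aligned bases Clspn overlapped, with 26.5 and 24.9 kb per Gb in the propionate libraries, against 30.0, 26.3 and 27.3 kb per Gb in the chloride libraries. Msh6, a mismatch recognition subunit, had 32.2 and 34.4 TPM in the propionate libraries, against 37.0, 34.1 and 35.2 TPM in the chloride libraries, which overlapped. In aligned bases Msh6 did not overlap, with 103.6 and 102.6 kb per Gb after propionate, against 110.1, 105.4 and 112.0 kb per Gb after chloride. The helicase gene Blm and the uracil glycosylase gene Ung had log2 changes of -0.05 and -0.02 and overlapped as well.

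Below the gene level, 253 reference and 17 assembled transcripts belonged to the 42 genes, and 83 of them passed the minimum of 1 TPM on average. With limma over 32170 transcripts, 0 of the 83 were called at an adjusted p under 0.05, beside 0.0187% lower and 0.0218% higher among all transcripts, and at an unadjusted p under 0.05 there were 9 lower and 2 higher, beside 3.8% and 3.39%. An assembled Clspn transcript of 5049 bases and 26 exons was listed at 0 in both propionate libraries, against 4.90, 1.47 and 3.01 TPM in the chloride libraries (adjusted p = 0.452). The Rfc1 transcript ENSMUST00000204965 had 8.001 and 7.25 TPM in the propionate libraries, against 11.3, 11.47 and 12.3 TPM in the chloride libraries (log2 change -0.56, adjusted p = 0.493). An assembled Rfc1 transcript had the same start, end, length (4751 bases) and number of exons (25), and the exons were not compared. It had 10.8 and 8.70 TPM in the propionate libraries, against 9.40, 10.4 and 10.55 TPM in the chloride libraries. Reads may be split between the pair. The Ccne2 transcript ENSMUST00000029866 had 0.443 and 0.502 TPM in the propionate libraries, against 2.07, 2.27 and 1.60 TPM in the chloride libraries (log2 change -1.01, adjusted p = 0.493). Another Ccne2 transcript, ENSMUST00000108324, had the same end and number of exons (12), with 3005 bases beside 3006. It had 8.60 and 7.72 TPM in the propionate libraries, against 9.65, 4.61 and 9.09 TPM in the chloride libraries (log2 change 0.12). Reads may be split between this pair too. The Clspn transcript, the Rfc1 reference transcript and the Ccne2 transcript ENSMUST00000029866 had the smallest p, and in each of them the groups did not overlap.

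Coverage also moved between reference and assembled transcripts of the same gene. Assembled transcripts were counted in 13 of the 42 genes, and in 12 of these their share of the gene's TPM differed by over 10 percentage points between libraries. The Clspn share was 6.55% and 90.1% in the propionate libraries, against 95.8%, 87.8% and 94.5% in the chloride libraries. For Tyms it was 25.4% and 50.01% in the propionate libraries, against 52.9%, 15.5% and 64.3% in the chloride libraries. Ccne2 had 47.4% in chloride replicate 2 and 0% in the other 4 libraries, and Exo1 had 70.5% and 60.3% in the propionate libraries, against 43.9%, 59.5% and 24.0% in the chloride libraries. Summed over reference transcripts only, the log2 change of Clspn was 1.22 rather than -0.14, while 24 of the 42 genes still had both propionate libraries below all chloride libraries, beside 17.0% of tested genes.

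**Figure D3:**
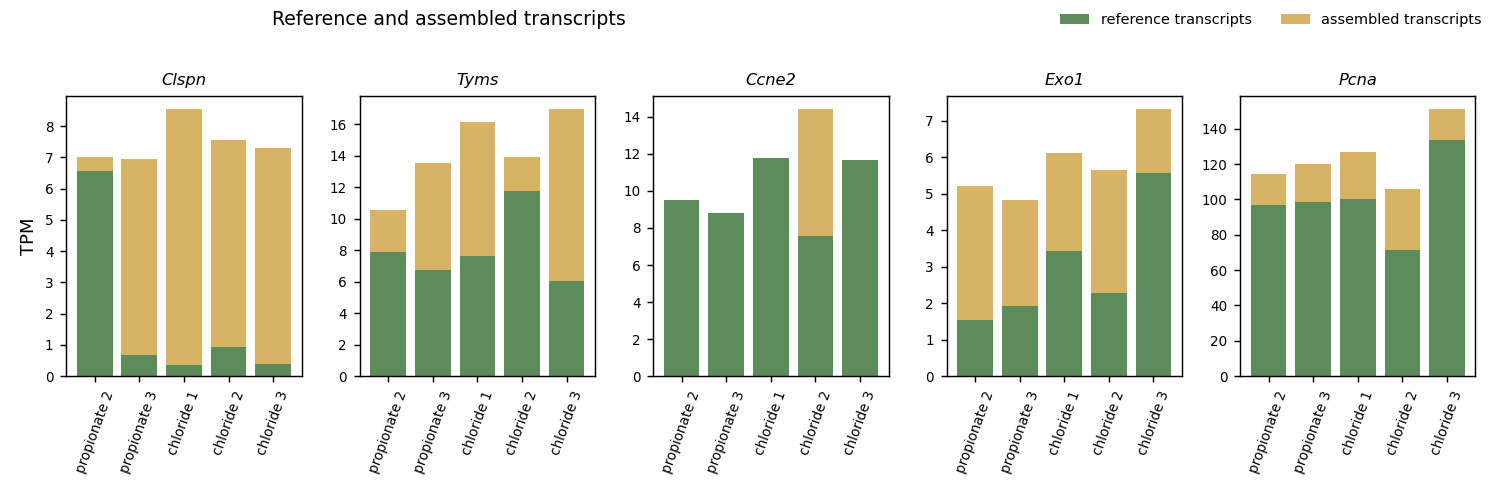
Stacked bars give TPM in reference and assembled transcripts for 5 of the 42 genes, with the 2 propionate libraries left of the 3 chloride libraries in each panel. The assembled share of Clspn is 6.55% in propionate replicate 2 and at least 87.8% in the other 4 libraries, while its total lies between 6.96 and 8.54 TPM.

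Whether any of the 42 genes was called depended on the scale and the test. With TPM rescaled over protein-coding genes, Fen1, Rpa2, Rrm1, Rrm2 and Uhrf1 were called lower (5 of 42, beside 2.89% of the genes tested on that scale). Voom on aligned bases called Cdc6, Rrm1, Rrm2 and Uhrf1 lower (4 of 42, beside 1.59%). Median-of-ratios scaling and FPKM each called Rrm2 lower (1 of 42, beside 0.829% and 0.494%). None of these 4 alternatives called any of the 42 genes higher, beside 4.9%, 3.69%, 1.99% and 1.23% of the genes tested. Counts of genes without overlap ranged from 24 with reference transcripts only to 32 in aligned bases. Both propionate libraries lay below all chloride libraries in 30 genes over protein-coding genes (beside 22.1% of tested genes), in 26 with median-of-ratios scaling (beside 19.9%) and in 32 in aligned bases (beside 22.3%). Of these 30, 26 and 32 genes, 26, 25 and 27 were among the 29.

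**Figure D4:**
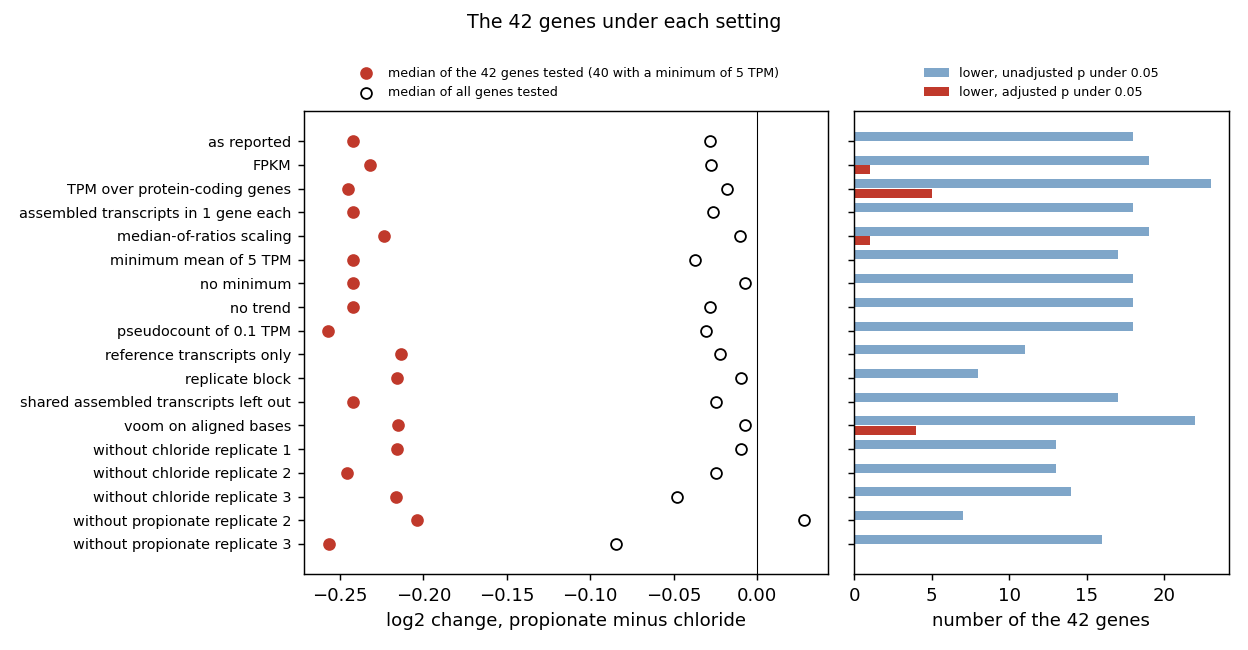
The left panel gives the median log2 change, propionate minus chloride, of the 42 genes (filled; 40 with a minimum of 5 TPM) and of all genes tested (open) as reported and under each alternative, and the right panel gives how many of the genes were lower at an unadjusted and at an adjusted p under 0.05. The median of the 42 genes lies between -0.26 and -0.20 in every row, and up to 5 genes are called lower.

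Other genes of DNA replication and nucleotide supply were set beside the 42 as 6 lists with 112 genes, all of which were tested. No gene of these lists was called at an adjusted p under 0.05, 19 were lower and 1 was higher at an unadjusted p under 0.05 (beside 8.61% and 7.52% of all tested genes), and 95 had a log2 change below 0 (beside 55.8%), with a median of -0.13. Without propionate replicate 2 the count of 19 was 11. Both propionate libraries lay below all chloride libraries in 53 of the 112 genes and above them in 6, beside 19.6% and 14.6% of all tested genes. The 32 further fork and origin genes had a median log2 change of -0.21, with 30 below 0. Mcm10, an initiation factor that binds the loaded helicase, had 11.4 and 11.2 TPM in the propionate libraries, against 15.8, 16.02 and 15.3 TPM in the chloride libraries (log2 change -0.45, adjusted p = 0.0798, limma).

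Further deoxynucleotide genes had a median log2 change of -0.05 over 20 genes, beside -0.31 for the 5 supply genes above, a difference that was not tested. Dtymk, thymidylate kinase, had 42.7 and 40.6 TPM in the propionate libraries, against 55.1, 53.9 and 53.1 TPM in the chloride libraries (adjusted p = 0.0973, limma). The single gene higher at an unadjusted p under 0.05 was Slc29a1, an equilibrative nucleoside transporter, with 96.6 and 115.4 TPM in the propionate libraries, against 90.4, 90.3 and 87.0 TPM in the chloride libraries (log2 change 0.24, adjusted p = 0.295, limma). The 17 genes of purine and pyrimidine synthesis from precursors had a median of -0.04. Atic, which completes the purine ring, had 38.9 and 42.3 TPM in the propionate libraries, against 53.3, 52.7 and 50.5 TPM in the chloride libraries (adjusted p = 0.117, limma).

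The 24 recombination and fork repair genes had a median log2 change of -0.14, the 9 checkpoint genes -0.12 and the 10 further chromatin assembly genes -0.08. Chek1, the kinase of the replication checkpoint, had 6.78 and 6.52 TPM in the propionate libraries, against 9.96, 7.39 and 8.83 TPM in the chloride libraries (adjusted p = 0.290, limma). Nasp, a chaperone of free histones, had 19.2 and 21.0 TPM in the propionate libraries, against 25.3, 24.98 and 28.0 TPM in the chloride libraries (adjusted p = 0.145, limma). In Chek1 and Nasp, picked as the genes with the smallest p of their lists, the groups did not overlap. Both propionate libraries lay below all chloride libraries in 12 of the 24, 4 of the 9 and 3 of the 10 genes, beside 19.6% of all tested genes. They lay above all chloride libraries in 1, 0 and 0 genes of these lists, beside 14.6%.

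**Figure D5:**
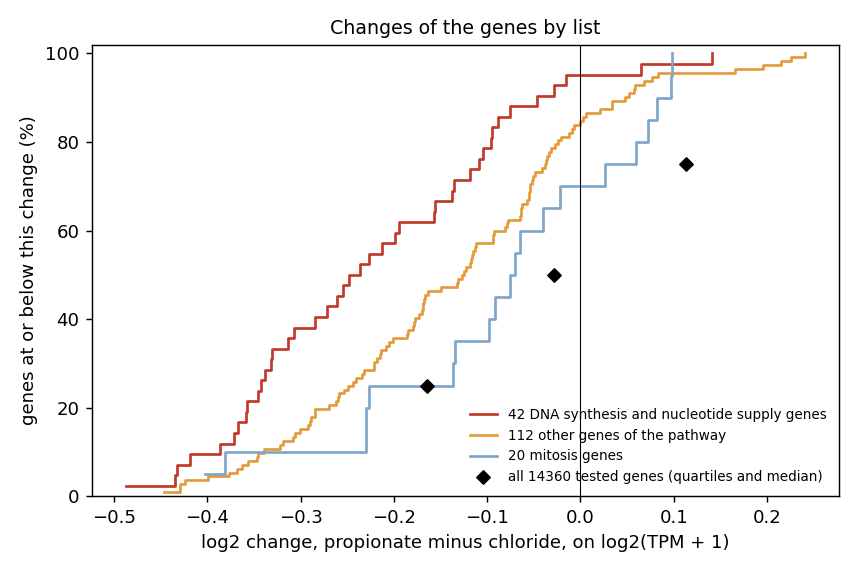
Steps give the share of genes (vertical axis, %) at or below each log2 change (horizontal axis, propionate minus chloride) for the 42 genes, the 112 other genes of the pathway and 20 mitosis genes, and diamonds mark the quartiles and the median of all 14360 tested genes. The median is -0.24 for the 42 genes, -0.13 for the 112 genes, -0.07 for the mitosis genes and -0.03 for all tested genes.

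Beside the 42 genes, the 11 replicative helicase genes (MCM and GINS subunits and Cdc45) had a median log2 change of -0.32, all below 0 (beside 55.8% of all tested genes), with 7 lower at an unadjusted p under 0.05 (beside 8.61%) and Mcm5 called. Mcm5 had 36.6 and 41.4 TPM in the propionate libraries, against 60.2, 56.4 and 60.2 TPM in the chloride libraries (log2 change -0.59, adjusted p = 0.0402, limma), and with any 1 of the 5 libraries left out its adjusted p was between 0.101 and 0.121. With all 5 libraries kept, the call of Mcm5 was also lost without the trend (adjusted p = 0.0804, limma) and with no minimum (adjusted p = 0.146). It was lost, too, with reference transcripts only (adjusted p = 0.1855). The replicate block lost it as well (adjusted p = 0.105), but only the chloride group has a replicate 1. Chloride replicate 1 thus did not bear on that change, which was -0.57, as it was without chloride replicate 1. Without propionate replicate 2, 4 helicase genes in place of 7 were lower at an unadjusted p under 0.05. The 20 mitosis genes had a median of -0.07, with 14 below 0 (beside 55.8% of all tested genes) and none called. At an unadjusted p under 0.05, 3 of the 20 were lower, beside 8.61%. Both propionate libraries lay below all chloride libraries in 7 of the 20 and above them in 2, beside 19.6% and 14.6% of all tested genes. The differences between these lists and the 42 genes were not tested.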

How the data were processed

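RNA of GL261 cells was extracted with an RNeasy Mini plus kit and made into stranded total RNA libraries, per the labels' protocols. Bcl2fastq, fastp, HISAT2, StringTie and the build mm10 are named in the submitters' processing notes. The authors' deposited files hold TPM, FPKM and coverage per transcript, estimated by StringTie 2.1.1 on one merged annotation with no strand option, per the file headers. Reads of overlapping and antisense genes may therefore be mixed. They hold no read counts. In each library TPM sums to 1000000 over every listed transcript, and this includes small RNAs.

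Gene TPM was computed as the sum over a gene's reference transcripts plus assembled transcripts of the same locus and strand that overlap its exons, joined through GENCODE annotation of the same build. The 14360 genes with a mean of at least 1 TPM entered limma 3.58.1 (R 4.3.3) as log2(TPM + 1), with a trend, two-sided, and Benjamini-Hochberg adjustment at 0.05 over all tested genes; this scale understates changes of low genes. The method was tested on simulated data. The smallest p of an exact permutation test of 2 against 3 libraries is 0.1, and no such test was run. No 2 libraries held identical values (SD of log2 differences within a group 0.358 to 0.382). Replicate numbers 2 and 3 occur in both groups, but nothing in the labels pairs them.

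The 42 genes, the roles, the other lists and the words searched in promoters were chosen with earlier results of these data known. In each role, the up to 3 genes with the smallest p have their value in every library; other lists name the gene with the smallest p, and transcripts the 3 with the smallest p and the 4 genes whose assembled share differs most. Pcna, Rpa1, Rpa3, Ccne1, Prim1, Slbp, Slc29a1 and the ratios were added after their values were seen. One result under these rules is not reported here. Promoter sequences are from RefSeq; protein sequences were not analysed here. Alternatives covered the pseudocount, minimum TPM, gene value, unit, scaling, test, replicate block and leaving out each library.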

Additional observations from a re-analysis of the deposited data

How the results depend on the processing

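Over 17 alternatives, 33 of the 42 genes kept the sign of their log2 change in all and 9 did not; of 712 gene values, 688 kept direction and side of the threshold, 11 passed it and 13 reversed. The number of the 42 genes called lower was 0 as reported, 1 with FPKM, 5 over protein-coding genes, 1 with median-of-ratios scaling, 4 with voom on aligned bases and 0 in the others; none was called higher. Of the other pathway genes 0 were called in either direction as reported, beside 0.279% lower and 0.877% higher of all tested genes. With voom 6 were called (beside 1.59% lower and 3.69% higher) and over protein-coding genes 8 (beside 2.89% and 4.9%). Median-of-ratios scaling called 1 (beside 0.829% and 1.99%). The 6 and the 8 genes both include Slc29a1, whose log2 change was 0.24 as reported. The median log2 change was -0.24 as reported and -0.26 to -0.20 with 1 library left out, with -0.20 without propionate replicate 2. Without that library 7 of the 42 genes were lower at an unadjusted p under 0.05, against 18 as reported, and 11 with reference transcripts only.

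Reversed log2 changes were small except Clspn with reference transcripts only (1.22). With voom they were 0.0237 for Blm, -0.0241 for Prim1 and 0.0756 for Rpa1, and with median-of-ratios scaling 0.0012 for Ung. With 1 library left out the log2 change ranged from -0.1493 (without propionate replicate 3) to 0.0551 (without propionate replicate 2) for Blm, from -0.2375 (without chloride replicate 2) to 0.0182 (without chloride replicate 3) for Pcna, from -0.0205 (without propionate replicate 3) to 0.1507 for Prim1, and from -0.0724 to 0.0396 (without chloride replicate 2) for Ung. Without propionate replicate 3 and without propionate replicate 2 it was -0.2154 and 0.0069 for Prim2, -0.1924 and 0.0032 for Rfc4 and -0.1996 and 0.048 for Slbp. For Rpa1 and Clspn the change of transcript shown above goes with the value; for the others the cause was not tested.

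Genes called lower and higher over the whole table were 40 and 126 as reported, 70 and 182 with each assembled transcript in 1 gene (an alternative chosen after seeing the data, as were the non-overlap counts by measure), 6 and 5 with reference transcripts only, 1 and 2 with no minimum, 70 and 127 with a minimum of 5 TPM, 16 and 77 without the trend, 119 and 286 with median-of-ratios scaling, 71 and 176 with FPKM, 228 and 530 with voom, and 350 and 593 over protein-coding genes. With 1 library left out they were 10 to 31 lower and 7 to 62 higher. With the replicate number as a block, the calls were 69 and 140. Of the 42 genes 0 were called, 8 were lower at an unadjusted p under 0.05 and the median was -0.22. Only the chloride group has a replicate 1, so chloride replicate 1 did not bear on the changes in this fit. Same-numbered libraries deviated with correlations of -0.18 and -0.12, which are not independent, since the deviations of 2 libraries mirror each other. They do not settle whether the numbers pair the samples, and the labels do not say so. With 2 propionate libraries and changes of this size, a gene that missed the threshold is not shown to be unaffected.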
